A study of Rattus norvegicus with 2 samples.

Results

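This array of rat bladder RNA holds many transcript clusters that carry no gene symbol. The 11363 of them with signals inside the limits given below were compared between a DMA pool and a control pool. The DMA pool held bladder RNA of 7 male F344 rats that drank water with 200 ppm dimethylarsinic acid (DMA) for 4 weeks. The control pool held bladder RNA of 7 male F344 rats given 0 ppm over the same 4 weeks. Per the labels, rats were 6 weeks old at the start and 10 weeks old at sampling, and the tissue was the urinary bladder. The study's methods give an age of 10 weeks at the start and epithelial cells swirled off inverted bladders in TRIzol. The labels and the methods thus differ on which layers of the bladder wall gave the RNA. Markers of smooth muscle, given below, had high signals in both pools, so the RNA did not come from urothelium alone. Each pool was read on 1 array, so the differences below are between pools and have no error, no p-value and no replicate check.

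DMA is a methylated form of arsenic and a carcinogen of the rat urinary bladder, where it damages the superficial urothelium and is followed by regrowth of the epithelium. A transcript cluster is a group of array probes laid over one stretch of transcribed genome. Clusters without a gene symbol can lie on long noncoding RNAs, on RNAs antisense to a gene, on unspliced introns, on the ends of genes beyond their annotated borders, on small structural RNAs or on repeats, and the array does not tell these apart.

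The clusters were selected by their measured signals. Of 68842 rows in the file, 68599 had an ID that starts with TC, and the platform annotation gave no gene symbol to 44870 of those. Kept were the clusters whose higher signal of the 2 arrays was at least 100 and whose mean log2 signal was under 16, which left 11363. The upper bound set aside 1851 very bright unnamed clusters and the minimum set aside 31656 dim ones. The clusters just inside the minimum, TC0700001218, TC1700000980 and TC0200004257, had a higher signal of 100.030, 100.035 and 100.061, and those just outside, TC0100008112, TC0100003332 and TC0600003201, had 99.986, 99.992 and 99.997. Just inside the upper bound lay TC0300004538, TC0700002437 and TC0200004952 with a mean log2 signal of 15.995, 15.996 and 15.999, and just outside it TC0200004278, TC1400002235 and TC0100003244 with 16.003, 16.014 and 16.016. The same limits kept 12089 clusters with exactly 1 gene symbol, which served for comparison. IDs are given without the suffix that all of them share.

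An ID consists of TC, a chromosome code of 2 characters and a running number, and the number followed the genome. Of 18227 pairs of symbol-bearing clusters within 5 ID steps of each other, 96.0% lay within 10 places in the GRCr8 gene table, and 96.0% of the 11844 pairs with a known strand lay on the same strand. Neighbours by ID are therefore given beside unnamed clusters as landmarks only, and a neighbour gives a cluster no name.

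The named landmarks of a stretch on code 17 and of a lower pair on code 18 are microRNA genes. A microRNA is cut from a longer transcript, and its seed, bases 2 to 8, pairs with target mRNAs. Their mature sequences are shown because these microRNAs are annotated beside the unnamed clusters described below, and were taken from RefSeq on GRCr8 with the seed in capitals. The seeds of these 5 differ from each other. The positions are chr17:72913060-72913081 for rno-miR-466d, chr17:72927649-72927669 and chr17:72927610-72927630 for the 5p and 3p arms of rno-miR-466c, chr18:57371373-57371394 for rno-miR-143-3p and chr18:57370033-57370055 for rno-miR-145-5p, all on the minus strand.
rno-miR-466d: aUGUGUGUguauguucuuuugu
rno-miR-466c-5p: uGUGAUGUguguauguacaug
rno-miR-466c-3p: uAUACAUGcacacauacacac
rno-miR-143-3p: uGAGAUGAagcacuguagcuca
rno-miR-145-5p: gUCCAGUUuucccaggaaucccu

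Most unnamed clusters differed little between the pools. Their median signal was 275 in the DMA pool and 289 in the control pool, and the median log2 ratio, DMA minus control, was -0.09 with quartiles of -0.35 and 0.15. The ratio lay within 1.5-fold for 86.3% of unnamed clusters and for 93.3% of clusters with a symbol, whose median was -0.04. The interquartile range was 0.49 against 0.27, so the unnamed clusters were more widely spread. They were also dimmer, with a mean log2 signal under 8 in 47.0% of them and in 29.2% of clusters with a symbol. At each level of mean log2 signal the unnamed clusters were again more widely spread. The interquartile ranges were 0.43 against 0.26 between 8 and 9, and 0.42 against 0.32 between 15 and 16. A ratio below 0 was found for 60.3% of unnamed and 58.9% of symbol-bearing clusters. Pearson's r between the log2 signals of the 2 arrays was 0.985 for the unnamed clusters, taken across clusters that share both arrays and are not independent replicates.

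A cluster was called higher when DMA over control reached 2 and its Z score reached 2, and lower when the ratio was 0.5 or less and the Z score -2 or less. The Z score places a log2 ratio among those of the 500 symbol-bearing clusters nearest in mean log2 signal, and does not measure how rats differ. Of the unnamed clusters, 76 (0.669%) were higher in the DMA pool, where 0.511% of all 23700 measured clusters were. A further 195 (1.72%) were lower, where 1.54% of all measured clusters were. Both shares lay close to this background, which includes the unnamed clusters themselves. The counts among clusters with a symbol were 44 higher (0.364%) and 170 lower (1.41%). At 1.5-fold without the Z score, 443 unnamed clusters (3.90%) were higher against 2.54% of all, and 1112 (9.79%) were lower against 7.49% of all. Among clusters with a symbol, 1.29% were higher and 5.43% lower by that rule. Lower calls made up 72.0% of the calls with the signals as deposited, 85.1% (52 higher, 297 lower) with each array centred on its median, 66.0% (84 higher, 163 lower) after a lowess correction and 59.2% (95 higher, 138 lower) after quantile normalization of the arrays.

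Many calls rested on a signal near the background of the array. In the control pool 37 of the 76 higher clusters stayed under 100, and in the DMA pool 55 of the 195 lower clusters did. Such clusters passed the minimum only through the pool in which they were high. When both signals had to reach 100, 39 higher and 140 lower clusters remained. The median change among the called clusters was 2.30-fold up and 2.23-fold down. More than 4-fold differences were seen for 5 higher and 9 lower clusters.

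**Figure D1:**
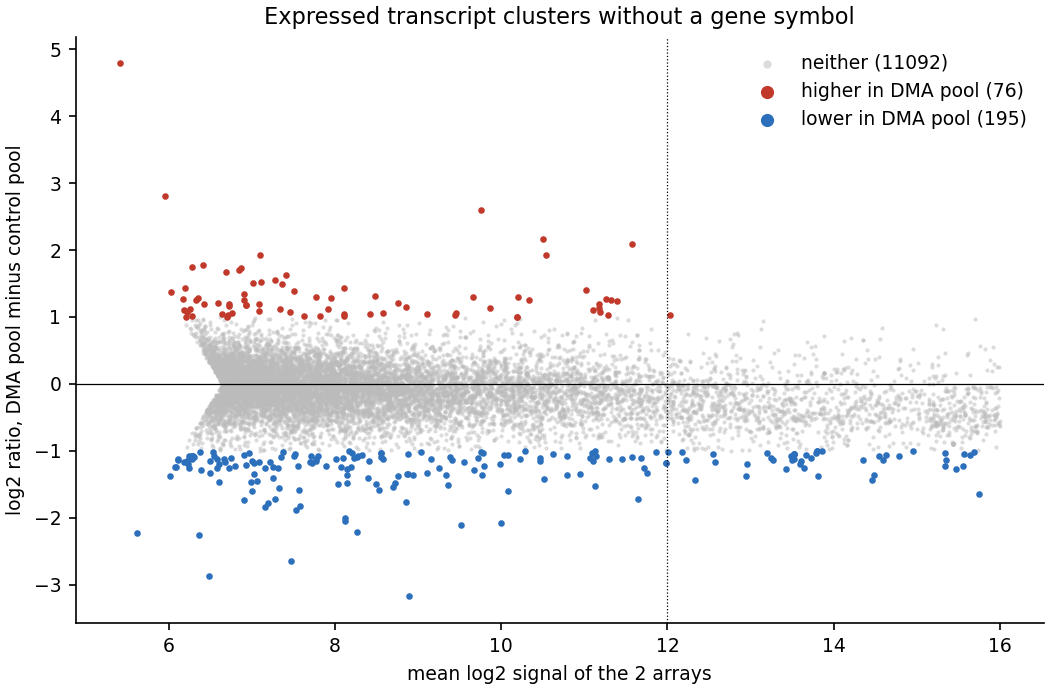
Log2 ratio, DMA pool minus control pool, of each of the 11363 unnamed clusters (points) against the mean log2 signal of the 2 arrays, with called clusters in colour and a dotted line at a mean of 12. The 76 higher clusters (red) lie mostly at low signal, with 1 at a mean of 12 or more, while 45 of the 195 lower clusters (blue) lie there.

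The brightest unnamed clusters were lower in the DMA pool as a group. At a mean log2 signal of 12 or more, 1332 unnamed clusters had a median log2 ratio of -0.37, and 84.1% of them lay below 0. Clusters with a symbol at the same level numbered 1468, with a median of -0.06 and 63.4% below 0. Calls in this range were 1 higher and 45 lower (3.38%) for unnamed clusters, and 1 higher and 27 lower (1.84%) for clusters with a symbol. Of all 23700 measured clusters at any level, 1.54% were lower. Below a mean of 12, the 10031 unnamed clusters had a median of -0.06. The step with level was gradual, from a median of 0.03 under a mean of 7 to -0.27 between 12 and 13, -0.41 between 13 and 14, -0.36 between 14 and 15 and -0.46 between 15 and 16. Symbol-bearing clusters stayed between -0.02 and -0.10 over these levels. The 1851 unnamed clusters set aside above the bound had a median of -0.42 with 1 higher and 1 lower.

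The size of this shift depended on the scaling. The medians of bright unnamed and bright symbol-bearing clusters were -0.47 and -0.16 with centred arrays, -0.30 and -0.01 after the lowess correction, and -0.14 and 0.13 after quantile normalization, so the unnamed median was the lower one in each. The 2 deposited arrays were not identically distributed, with a median signal over the whole file of 53.2 in the DMA pool and 49.7 in the control pool.

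**Figure D2:**
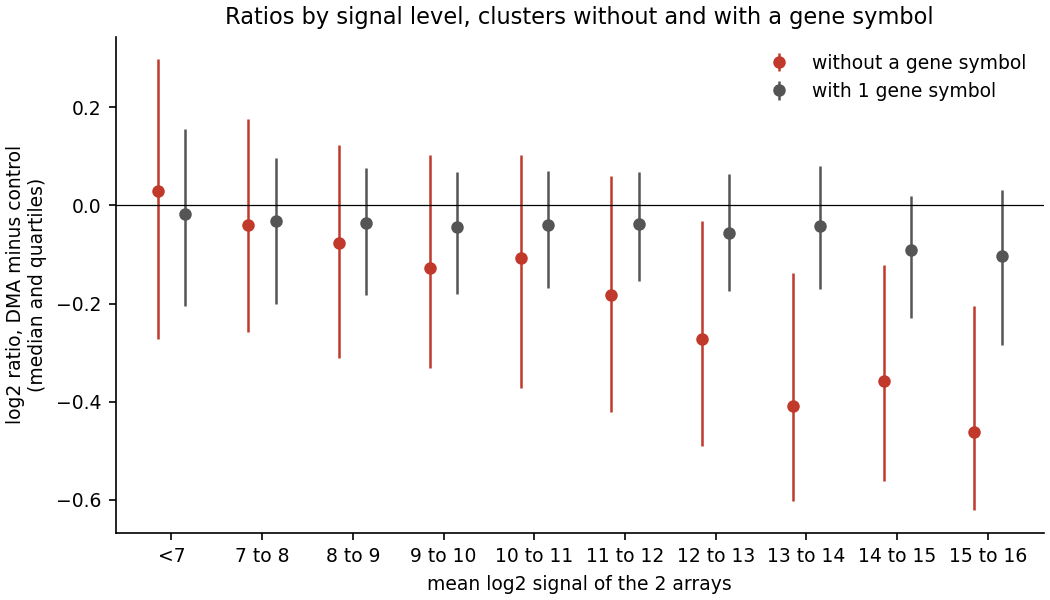
Median (point) and quartiles (line) of the log2 ratio, DMA minus control, by mean log2 signal, for clusters without a gene symbol (red, left) and with 1 gene symbol (grey, right). The unnamed clusters go from 0.03 at the dimmest level to -0.46 at the brightest, while the symbol-bearing clusters stay between -0.02 and -0.10.

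Most of the 10 brightest unnamed clusters had ratios below 0. Their signals lay between 52542 and 70845 in the DMA pool and between 59362 and 81242 in the control pool. The brightest, TC0200004952, had 52763 in the DMA pool and 81242 in the control pool (log2 ratio -0.62). A single one was above 0, TC0X00000075, with 70845 in the DMA pool and 59362 in the control pool (0.26). With centred arrays 9 of the 10 were below 0, after lowess 8 and after quantile normalization 7. The lowest ratio at a mean log2 signal of 12 or more was that of TC0300003953, with 31159 in the DMA pool and 97241 in the control pool, a 3.12-fold lower signal with a Z score of -4.81. It was numbered 1 step from Gpr176, which encodes an orphan G protein-coupled receptor and had a log2 ratio of -0.36.

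The highest ratios fell into a few bright clusters and many dim ones. TC0X00000842 had the highest ratio of all, with a signal of 223 in the DMA pool and 8.08 in the control pool (log2 ratio 4.79), where the lowest signal in the file was 5.63. Diaph2, a formin gene and the nearest measured gene by number at 5 steps, had a log2 ratio of 0.27. TC0600003286 had 163 in the DMA pool and 23.3 in the control pool (2.81). In both, the control signal was far below 100, so the fold rests on a dim value, which for TC0X00000842 lay near the bottom of the scale.

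TC0200001807 was the highest of the clusters with both signals above 100. Its signal was 2133 in the DMA pool and 351 in the control pool, a 6.08-fold higher level with a Z score of 8.85. It lay 1 step from Reg4, which encodes a secreted lectin-like protein of the gut, and 3 steps from Zfp697. Both genes were under the minimum in both pools, with 41.7 and 96.7 in the DMA pool and 36.9 and 83.9 in the control pool.

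TC0100003074, TC0100003075 and TC0100003076 stood next to each other and were all higher. Signals in the DMA pool were 2893, 6284 and 3060, and those in the control pool were 762, 1469 and 685. The ratios were 3.80-fold, 4.28-fold and 4.47-fold. They were numbered between Ltbp3, which encodes a protein that binds latent TGF-beta (log2 ratio -0.27), and Slc25a45, a mitochondrial carrier gene (0.20). These were the brightest clusters among the 15 highest ratios.

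A dimmer group of higher clusters was numbered around LOC102551177 on chromosome code 01. TC0100005555, TC0100005556, TC0100005557 and TC0100005558 had 267, 147, 294 and 299 in the DMA pool and 90.4, 63.4, 113 and 96.7 in the control pool. TC0100005561 had 208 in the DMA pool and 63.9 in the control pool (log2 ratio 1.70), and TC0100005563 had 234 in the DMA pool and 81.5 in the control pool (1.52). LOC102551177 itself was under the minimum, with 27.5 in the DMA pool and 25.2 in the control pool. All but 1 of these control signals were under 100.

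The other members of the 15 highest were single dim clusters. TC0400001897 had 268 in the DMA pool and 70.3 in the control pool (1.93). TC0700002379 had 158 in the DMA pool and 46.0 in the control pool (1.78). TC0500001474 had 142 in the DMA pool and 42.5 in the control pool (1.74), and TC1400000589 had 213 in the DMA pool and 64.1 in the control pool (1.73). TC1300001558 had 183 in the DMA pool and 57.7 in the control pool (1.67), 2 steps from Rgs18, a regulator of G protein signalling (-0.90). Each had a control signal under 100 and a DMA signal under 300.

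**Figure D3:**
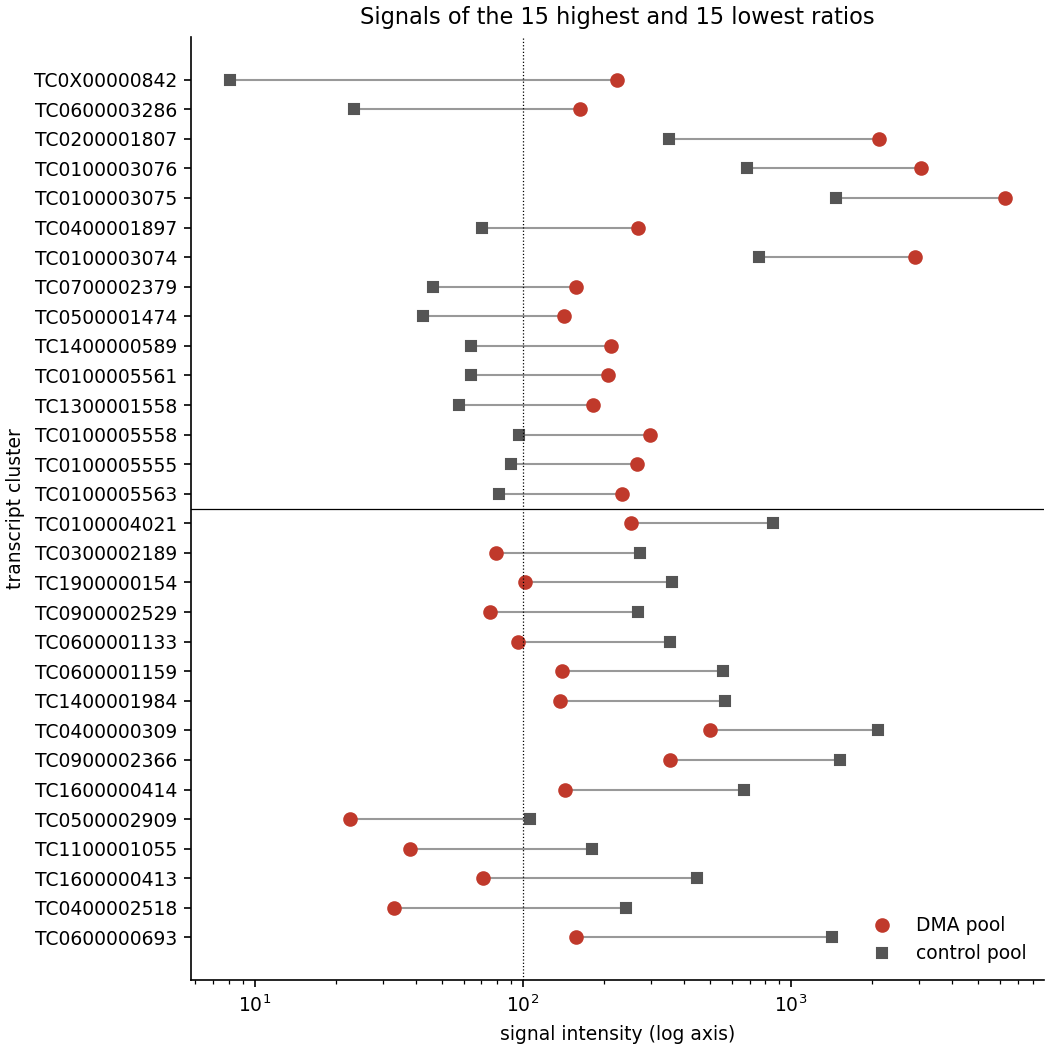
Signal intensity (log axis) in the DMA pool (red circles) and the control pool (grey squares) of the unnamed clusters with the 15 highest (above the line) and the 15 lowest ratios (below it), with a dotted line at a signal of 100. TC0200001807 and the TC0100003074 to TC0100003076 group lie above 100 in both pools, while the other 11 higher clusters have control signals under 100.

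The lowest ratio was that of TC0600000693. Its signal was 158 in the DMA pool and 1421 in the control pool, a 9.02-fold lower level with a Z score of -10.32. The nearest measured symbol-bearing cluster, Dnajb6-ps4 at 5 steps, had a log2 ratio of -0.43. TC0400002518 had 33.0 in the DMA pool and 242 in the control pool (7.35-fold lower), and the tetraspanin gene Tspan12 at 5 steps was at 0.23. TC1100001055 had 37.7 in the DMA pool and 180 in the control pool (4.78-fold lower), 5 steps from both Epha3, an ephrin receptor gene (-0.60), and C11h3orf38 (0.11). All 3 ratios lay further from 0 than those of the symbol-bearing clusters given beside them, which follows from choosing the lowest ratios.

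Other strongly lower clusters were numbered beside named genes with ratios below 0. TC1600000413 had 71.1 in the DMA pool and 445 in the control pool (6.26-fold lower), and TC1600000414 had 143 in the DMA pool and 665 in the control pool (4.65-fold lower). They followed Palldl1, which was lower too (1209 in the DMA pool and 2525 in the control pool, log2 ratio -1.06). TC0900002366 had 354 in the DMA pool and 1522 in the control pool (4.30-fold lower), 1 step from Pid1, which encodes a phosphotyrosine-binding protein (-0.71). TC1400001984 had 137 in the DMA pool and 569 in the control pool (4.16-fold lower), next to C1qtnf7, a secreted C1q-like protein gene (-0.86).

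Further clusters among the 15 lowest were between 3.38-fold and 3.99-fold lower. TC0600001159 had 140 in the DMA pool and 557 in the control pool (3.99-fold lower), and TC0600001133 had 95.7 in the DMA pool and 355 in the control pool (3.71-fold lower, 2 steps from Rgs6 at -0.85). TC0900002529, TC0300002189 and TC0100004021 were 3.57-fold, 3.44-fold and 3.38-fold lower. TC0300002189 lay 2 steps from Lbp, whose product binds bacterial lipopolysaccharide (-0.59).

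Each unnamed cluster was set beside the nearest measured named cluster. Across 9342 unnamed clusters with a measured named neighbour up to 5 steps away, the 2 log2 ratios correlated with r = 0.18 and shared their sign in 56.4%. At 1 step (4393 pairs) r was 0.28 and the sign was shared in 58.5%, and at 2 to 5 steps r lay between 0.08 and 0.13. Pairs of clusters with different symbols gave r = 0.07 up to 5 steps (10510 pairs) and 0.06 at 1 step. They shared their sign in 53.9% and 53.4%, not far below the shares of the unnamed clusters. Pairs of unnamed clusters at 1 step, without identical values, gave r = 0.41 (3122 pairs). All points share the same 2 arrays, neighbours may share a transcript or probes, and these values are a description.

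Of 101 unnamed clusters whose nearest named cluster was called lower, 15 (14.9%) were lower and 1 was higher, with a median of -0.32. At 1 step, 9 of 49 (18.4%) were lower, 41 lay below 0 and the median was -0.49. The 9224 unnamed clusters beside a named cluster that was not called had a median of -0.09, with 140 lower (1.52%) and 40 higher. Next to a higher named cluster, 0 of 17 unnamed clusters were higher and 2 were lower, with a median of -0.31. Over all unnamed clusters, 0.669% were higher and 1.72% lower. The median beside lower named clusters was -0.42 with centred arrays, -0.28 after lowess and -0.26 after quantile normalization. Of the 157 lower unnamed clusters with a named neighbour, 15 had a lower neighbour, as did 101 of all 9342. Of the 41 higher ones with a named neighbour, 0 had a higher neighbour, as did 17 of all 9342. With shares this small, a count of 0 among 17 or 41 clusters says little.

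The 15 lower pairs lay at 12 named clusters, which are given here with what their genes are known for. TC0400000309 had 500 in the DMA pool and 2103 in the control pool (log2 ratio -2.07), 1 step from a cluster of Col1a2, which encodes a chain of type I collagen (DMA 19784, control 56895, -1.52). TC1400001664 had 621 in the DMA pool and 1890 in the control pool (-1.61), 1 step from Pdgfra, a growth factor receptor of fibroblasts (DMA 3007, control 8147, -1.44). TC0500002909 and TC0500002908 had 22.5 and 79.9 in the DMA pool and 106 and 185 in the control pool, at 4 and 3 steps from Tnc, which encodes the matrix protein tenascin C (2190 in the DMA pool and 8092 in the control pool, -1.89). TC1700001289 had 808 in the DMA pool and 1767 in the control pool (-1.13), 5 steps from the matrix protein gene Tgfbi (-1.54). Clusters beside other lower genes of this kind were not called. Their log2 ratios included -0.71 beside Col3a1, -0.52 beside a second cluster of Col1a2, -0.39 beside Fbln1, 0.37 beside Igf1 and 0.43 beside Col6a3. The 57 other lower named clusters, of all kinds, were nearest to 74 unnamed clusters, with a median of -0.27 and 20 above 0.

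Further pairs lay at Cd34, Nrp2 and Hbbl1. TC1300001098 had 951 in the DMA pool and 2106 in the control pool (-1.15), 1 step from Cd34, a surface protein of endothelium and stromal cells, whose cluster had 879 in the DMA pool and 1935 in the control pool (-1.14). TC0900000783 had 207 in the DMA pool and 548 in the control pool (-1.40), 1 step from Nrp2, a co-receptor for semaphorins and VEGF (-1.07). TC0100002240 had 93.5 in the DMA pool and 275 in the control pool (-1.55), 1 step from the beta-globin gene Hbbl1 (DMA 683, control 4801, -2.81). Besides the Palldl1 pair given above, clusters beside Cesl1, Samd5, Pi15 and Tnfsf10 made up the rest, with log2 ratios between -1.82 and -1.15. The same 12 named clusters were the nearest to 12 more unnamed clusters that were not lower, with log2 ratios from -0.75 to 0.17 and a median of -0.12, among them 0.15 and 0.16 beside Cd34 (TC1300001099 and TC1300001100) and -0.01 and 0.17 beside Nrp2 (TC0900000778 and TC0900000779).

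Markers of cell types moved in the same 2 arrays. Of 5 fibroblast and matrix markers, 4 were lower (median log2 ratio -1.44), both measured red cell markers of 3 were lower (median -1.70), and the medians of 4 smooth muscle, 3 endothelial and 3 macrophage markers were -0.39, -0.33 and -0.78 with 0 called. Of 8 urothelial markers, 7 were found, with a median of 0.04, signals of 1407 to 561252 in the DMA pool and 1480 to 544597 in the control pool, and 1 lower (Krt20, a keratin of superficial cells, -1.23). All 5 markers of cycling cells were higher (median 1.95). Signals of the 4 smooth muscle markers were 51915 to 193999 in the DMA pool and 64332 to 268031 in the control pool. Those of the 5 fibroblast and matrix markers were 3007 to 123104 in the DMA pool and 8147 to 185257 in the control pool. The part of these cell types in the unnamed clusters was not tested, and fewer cells of a type and less RNA per cell cannot be told apart in bulk RNA.

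The autosomes and the X gave similar shares of their unnamed clusters. The 21 codes for chromosomes 01 to 20 and 0X held 269 (20) to 1288 (01) of them, which was 22.9% to 28.3% of the unnamed clusters of each code. The code 0Y held 0 unnamed clusters, 5 codes of small contigs held 10, and 22 had the code Un. Of the symbol-bearing clusters with a chromosome in the GRCr8 table, 98.7% lay on the chromosome of their code. The median log2 ratio was below 0 for 21 of 21 chromosome codes, from -0.16 for 0X (quartiles -0.37 and 0.11) to -0.02 for 19 (quartiles -0.24 and 0.19), and was below the symbol-bearing median of the same code for 20 of 21, all but 12. The range over codes was thus far smaller than the spread within one. Under quantile normalization 13 of 21 medians were below 0 and 21 of 21 were below the symbol-bearing median.

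Lower clusters outnumbered higher ones in 20 of the 21 codes. The exception was code 15, with 9 higher and 6 lower among 442 clusters (2.04% and 1.36%). Code 16 had 0 higher and 12 lower among 338 (3.55%), and code 09 had 0 higher and 12 lower among 474 (2.53%). Of all 23700 measured clusters, 0.511% were higher and 1.54% lower. Clusters with neighbouring numbers were counted singly, and 4 of the 12 lower clusters of code 16 lay between TC1600000654 and TC1600000659. Code 04 had 5 higher and 20 lower among 739, and code 01 had 19 higher and 21 lower among 1288. Code 10 had the smallest lower share, with 4 of 638 (0.627%). The lowest ratio of a code lay between -3.17 (06) and -1.19 (07, TC0700003003), and the highest between 0.92 (09, TC0900001496, and 16, TC1600000772) and 4.79 (0X). With counts this small and 1 array per pool, the codes were not ranked further.

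**Figure D4:**
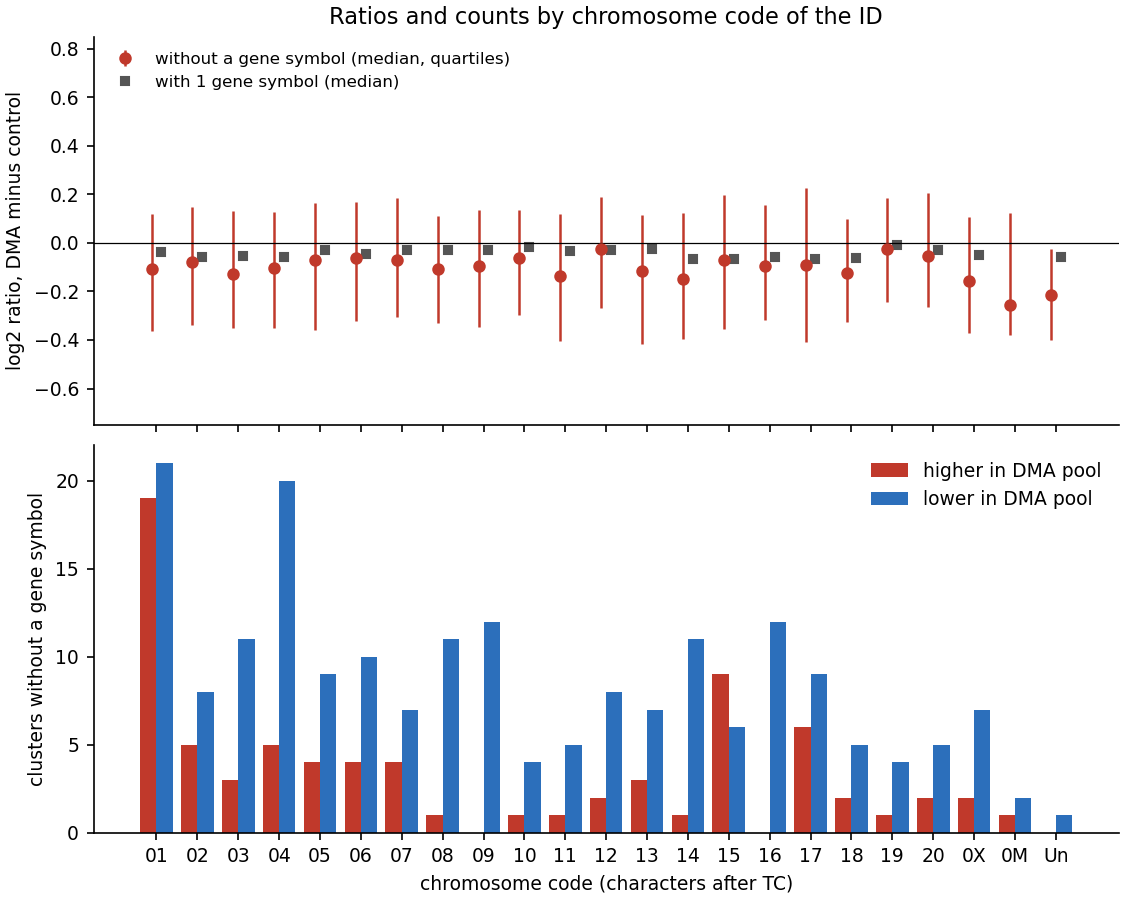
Upper panel: median and quartiles of the log2 ratio, DMA minus control, of unnamed clusters (red circles) and median of symbol-bearing clusters (grey squares) for each code with at least 20 unnamed clusters. Lower panel: number of unnamed clusters called higher (red, left) and lower (blue, right), where code 15 is the chromosome code with more higher (9) than lower (6) clusters.

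Some unnamed clusters with neighbouring numbers differed in the same direction. A run was at least 3 unnamed clusters, with ID steps of at most 2, that were all at least 1.5-fold higher or all at least 1.5-fold lower. There were 27 runs with 106 clusters, of which 7 runs with 35 clusters on 3 codes were higher and 20 runs with 71 clusters on 13 codes were lower. The 35 clusters of the higher runs held 32 distinct pairs of signals, since 3 clusters of a run on code 17 repeated those of another run there. The clusters of a run may be parts of one transcript, so a run is not several independent findings.

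The longest run, TC0700000794 to TC0700000801, held 8 higher clusters. Log2 ratios lay between 0.75 and 1.04 and signals between 182 and 1459 in the DMA pool and between 93.7 and 751 in the control pool. The 26 clusters from Ifng to the next symbol, Grip1, held 10 expressed unnamed clusters, and all 10 were above 0 (median 0.83). Grip1, which encodes a scaffold protein with PDZ domains, lay 2 steps further at 0.58. A single cluster of the run, TC0700000797, passed both thresholds (790 in the DMA pool and 383 in the control pool). This count was 0 with centred arrays, 1 after lowess and 3 after quantile normalization.

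The longest lower run, TC0400003471 to TC0400003476, followed Pdzrn3. Its 6 clusters had log2 ratios of -1.73, -1.48, -0.80, -1.15, -1.58 and -1.51, and 5 were called lower. The brightest, TC0400003476, had 388 in the DMA pool and 1109 in the control pool. Pdzrn3, a ubiquitin ligase gene, lay 1 step before the run at -0.72, and the ratios of all 6 clusters were lower than that of this gene. The adhesion gene Cntn3, 5 steps after the run, was under the minimum in both pools.

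Other lower runs were numbered at varying distances from a named cluster. TC1700000967 to TC1700000971, of which 3 of 5 were called, began 5 steps after Celf2 (an RNA-binding splicing regulator, -0.21) and had 243, 671, 175, 149 and 1160 in the DMA pool and 710, 1533, 413, 236 and 1764 in the control pool. TC1600000654 to TC1600000659 held 5 clusters with log2 ratios of -1.45 to -0.97, of which 4 were called, 1 step after Rabif-ps1 at 0.15. TC0X00000570 to TC0X00000573 held 4 clusters, all called, with 306, 259, 155 and 153 in the DMA pool and 782, 566, 362 and 323 in the control pool, 7 steps before Yipf6 at -0.11. Further runs were TC0100007560 to TC0100007563 (-1.03 to -0.81, 1 called), 15 steps after Prkg1, a cGMP-dependent kinase of smooth muscle (-0.50), and TC0800001011 to TC0800001014 (lowest cluster 111 in the DMA pool and 238 in the control pool, the 1 called), 11 steps after the nuclear receptor gene Rora (-0.01).

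A separate class of 7 lower runs was bright and had ratios close to 0.5. In TC1900001429 to TC1900001431, signals were 4064, 5737 and 6636 in the DMA pool and 9081, 11335 and 14645 in the control pool. In TC1300000098 to TC1300000100 they were 7775, 5418 and 31416 in the DMA pool and 17135, 10776 and 73584 in the control pool, although Serpinb8, 1 step before, was higher (DMA 4293, control 2032, log2 ratio 1.08). In TC0100001144 to TC0100001146 they were 6542, 8845 and 16648 in the DMA pool and 13409, 17052 and 36641 in the control pool, 2 steps from the zinc finger gene Zfp780b at -0.07. Log2 ratios over the 22 clusters of the 7 bright runs lay between -1.23 and -0.72, and 14 were called. Of these 14 calls, 8 held after lowess and 2 after quantile normalization, where the ratios of all 22 clusters were still below 0 (-1.01 to -0.56). All 14 held with centred arrays, but centring lowers every ratio by the same amount, so it could not undo a lower call.

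A stretch of clusters on code 17 between Sfmbt2 and Kin was chosen after its values were seen. Sfmbt2 encodes a Polycomb-group protein, and in the mouse one of its introns carries a large microRNA cluster with miR-466 genes. Of 75 clusters numbered between the 2 genes, 63 were expressed and unnamed, and 61 of those were above 0, with a median log2 ratio of 0.59 and a range of -0.64 to 1.44. At least 1.5-fold higher were 33 of the 63, 1 was at least 1.5-fold lower, and 6 passed both thresholds for higher, which were 5 distinct readings. Of all 23700 measured clusters, 2.54% were at least 1.5-fold higher, 7.49% at least 1.5-fold lower, and 0.511% passed both thresholds for higher. The 63 clusters held 51 distinct pairs of values, since some were listed with the same signals more than once, and the 33 include such repeats. The count above 0 was 61 with centred arrays, after lowess and after quantile normalization (medians 0.49, 0.62 and 0.67).

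The microRNA landmarks of the stretch lay in the same range. Mir466d was read by TC1700002111 (378 in the DMA pool and 214 in the control pool, log2 ratio 0.82) and by TC1700002115 and TC1700002144, which had identical signals (DMA 943, control 590, 0.68). Mir466c was read by TC1700002142 (DMA 5692, control 3100, 0.88). None reached 2-fold. The probes of such a cluster need not read the mature microRNA printed above. The largest ratio of the stretch was TC1700002107, with 452 in the DMA pool and 167 in the control pool (2.71-fold higher), and TC1700002119 had 3230 in the DMA pool and 1501 in the control pool (2.15-fold higher). Sfmbt2 at one end had signals of 38.0 in the DMA pool and 35.2 in the control pool, under the minimum of 100, Kin at the other end was at -0.03, and Itih5 inside the stretch, a matrix-stabilising protein gene, was at -0.53.

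**Figure D5:**
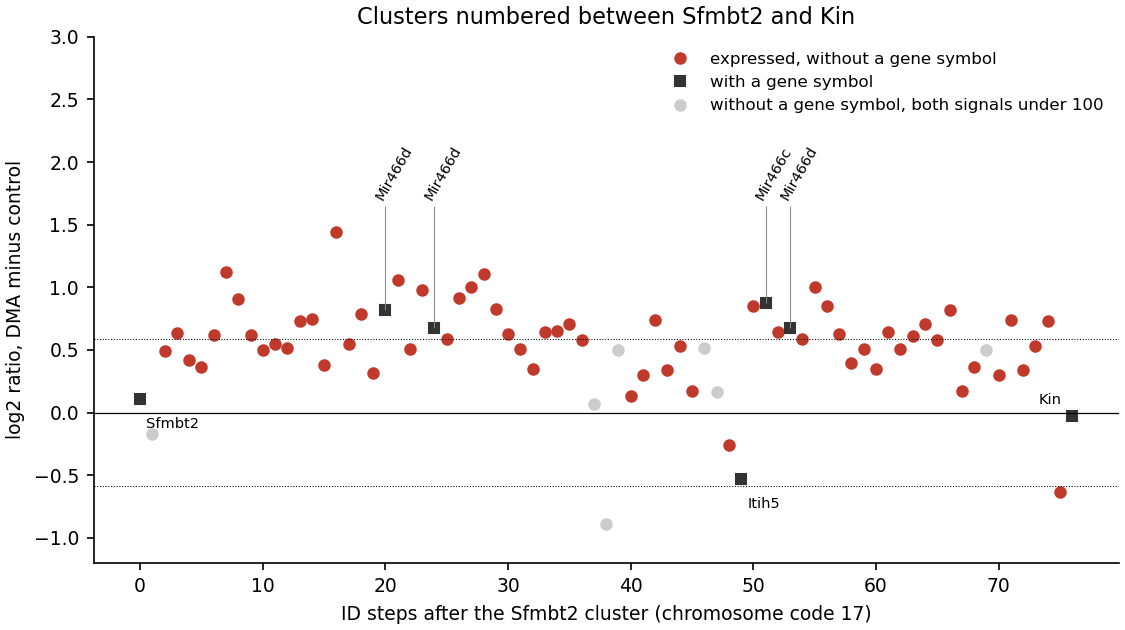
Log2 ratio, DMA minus control, of each cluster between Sfmbt2 and Kin against its ID steps after Sfmbt2, for expressed unnamed clusters (red), clusters with a symbol (black squares) and unnamed clusters with both signals under 100 (grey), with dotted lines at 1.5-fold. Of the 63 red points, 61 lie above 0, along with the Mir466c and Mir466d clusters, while Itih5 is at -0.53 and Kin at -0.03.

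Of the 110 measured clusters of microRNA genes, 3 were lower and 0 higher, where 1.54% and 0.511% of all 23700 measured clusters were. As a set, the 110 leaned the other way, with a median log2 ratio of 0.11 and 45 below 0. The microRNA genes Mir143 and Mir145, numbered 1 step apart on code 18, were lower. Mir143 had 338 in the DMA pool and 709 in the control pool (log2 ratio -1.07), and Mir145 had 451 in the DMA pool and 973 in the control pool (-1.11). Both are known for their abundance in smooth muscle, whose 4 markers had a median of -0.39. The unnamed cluster TC1800001527, 1 step from Mir143, had 117 in the DMA pool and 234 in the control pool, a log2 ratio of -0.997 that just missed the ratio threshold, while TC1800001524, 1 step from Mir145, was at -0.37 and TC1800001522, 3 steps from it, at -0.24. The third, Mir450a1, had 82.3 in the DMA pool and 215 in the control pool (-1.39), and the unnamed TC0X00001332, 1 step from it, was at -0.23.

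On the mitochondrial code 0M, 25 of 40 clusters were expressed and unnamed. Their median was -0.25 (quartiles -0.38 and 0.12), and 17 were below 0. The 11 brighter unnamed clusters had a median of -0.25, and the respiratory chain genes COX1, COX2 and COX3 lay between -0.42 and -0.08. TC0M00000001 was higher, with 3808 in the DMA pool and 1586 in the control pool (2.40-fold). TC0M00000008 was lower, with 7069 in the DMA pool and 17113 in the control pool (2.42-fold), as was TC0M00000018, with 4158 in the DMA pool and 8574 in the control pool (2.06-fold). The mitochondrial clusters therefore differed among themselves more than the median shift, which was -0.06 after quantile normalization.

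Some unnamed clusters were listed with exactly the same signals on both arrays. There were 111 such groups with 250 clusters (2.20%), against 8 groups with 16 clusters (0.132%) among those with a symbol, and 42 groups spanned several chromosome codes. The largest held 7 clusters on 4 codes with 32449 in the DMA pool and 60749 in the control pool (log2 ratio -0.90). Called clusters made up 5 groups with 11 clusters. One of them was TC0100002729, TC0500001591 and TC0500001796 with 8220 in the DMA pool and 16964 in the control pool (-1.05), the last being the first cluster of a bright lower run. Such clusters cannot be told apart on this array and count as one reading, and counting each pair of values once left 74 higher and 191 lower of 11224.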

How the data were processed

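RNA of 7 rats per group was pooled and read on 1 array per group. Per the labels, the authors summarised the deposited values with RMA in Affymetrix Expression Console 1.4.1, and they are linear signal intensities per transcript cluster, which were taken to log2. The study's methods name another array type, and the build of the clusters was not given in the sources used here. Gene symbols came from the platform annotation and were updated through gene identifiers with the GRCr8 gene table for 21863 of 23224 symbol-bearing clusters. The thresholds on ratio and Z score follow the methods of the study; the clusters over which Z was taken were chosen here. RMA sets a common scale over all clusters, so a change shared by most of them would be removed, and it narrows ratios of dim clusters. The number of arrays limits the precision.

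Members, lists and rules were chosen with earlier results of these data known. Named clusters were the 15 highest and 15 lowest ratios among called ones, the 10 brightest, those beside each signal limit, the extremes of each code and the runs; others were named after their values were seen. Calculations used Python 3.11.15, pandas 2.3.3 and statsmodels 0.14.6, and were tested on simulated data. Alternatives were other signal limits, call rules, ID distances and scalings, and identical values counted once.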

Additional observations from a re-analysis of the deposited data

Results flagged for a closer look

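Some differences lay in clusters that are not among the 11363. Among the 1851 unnamed clusters with a mean log2 signal of 16 or more, 1 had a signal in the DMA pool at least 2-fold above that in the control pool and 1 was lower. Among 248 measured clusters with several gene symbols, 1 was at least 2-fold higher and 1 lower, and among 111 measured clusters with 1 symbol and an ID that starts with TS, 1 was higher and 4 were lower (3.60%). The 31656 unnamed clusters under the signal minimum had 80 higher and 25 lower. The sets are given because they are not part of the 11363, and no control beyond the 1 control pool bears on them.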

How the results depend on the processing

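With the higher signal at least 200, the unnamed clusters numbered 7443, of which 49 were higher, with a median log2 ratio of -0.14 and 65.6% below 0. With no minimum they numbered 43019, with 156 higher, a median of 0.078 and 38.4% below 0, so the sign of the median turned; the 31656 dim clusters that this adds had a median of 0.12. With both signals at least 100, 39 were higher and 62.0% below 0. Without the upper bound the median was -0.14 with 65.0% below 0, and with a bound of 14 it was -0.078 with 58.9% below 0. A ratio of 1.5 with the Z score gave 384 higher and 674 lower. With centred arrays, 297 were lower, the median was -0.19, 70.4% lay below 0 and 65.6% shared the sign of the named neighbour. The r with the named neighbour stayed at 0.18, since centring shifts all ratios alike. After lowess the median was -0.054, with 56.3% below 0 and 54.6% sharing the sign, and after quantile normalization -0.011, with 51.3% and 54.7%, and 15 of 23 codes were below 0. At 1 ID step 58.5% shared the sign. The cause of the changes with scaling was not tested.

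Of the 195 lower clusters, 195, 163 and 137 were also lower with centred arrays, after lowess and after quantile normalization, as were 52, 76 and 74 of the 76 higher ones. These scalings moved the median of the whole file by -0.10, 0.03 and -0.05. Centring lowers every ratio by the same amount, so it could not undo a lower call. Among 166 named clusters, 5, 7 and 15 lost their call and 8, 1 and 4 gained one, and 0 called ones changed direction. Taking the ratio alone left both counts as they were. No cluster without a symbol had a gene identifier, so leaving such clusters out changed nothing. No paired analysis was possible because each group has 1 array.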
